A study of Mus musculus with 28 samples.

Results

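The opioid receptor family consists of the mu receptor gene Oprm1, the delta receptor gene Oprd1, the kappa receptor gene Oprk1 and the nociceptin receptor gene Oprl1. They were examined together with Pnoc, which encodes prepronociceptin, the precursor of the peptide that activates the nociceptin receptor. These 5 genes were taken by name, out of 20660 gene symbols on the array, from the probes whose transcript accession belonged to them. They had 7 probes, 2 each for Oprm1 and Oprl1 and 1 for each other gene, and the probe with the highest mean level stood for a gene. A probe was tested if some fraction of each series showed it well above background, which held for all 5 of these probes and for 6 of the 7.

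Opioid receptors are G protein-coupled receptors that act through inhibitory G proteins, which open potassium channels, close calcium channels and restrain adenylyl cyclase. The mu receptor is the main target of morphine, the kappa receptor is activated by dynorphin, and the delta receptor by enkephalins. The nociceptin receptor is related to them in sequence but has low affinity for the classical opioid peptides.

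Transcriptome Tomography measures a frozen brain cut along 1 body axis, with consecutive sections pooled into fractions and each fraction put on 1 array. The mice were male, of the strain C57BL/6J and 3 weeks old, with no treatment or genetic change named, and a brain gave the 12 coronal, another the 6 horizontal and the other the 10 sagittal fractions. No position was measured more than once, so mouse and plane cannot be told apart, and p-values describe the scatter around a smooth curve in these 3 brains only. The label of the last coronal fraction names a following fraction pooled with it, and the labels do not say which end of the sagittal series is left.

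Levels are log2 of the processed signal relative to the 75th percentile of the array, so a level of 0 equals that percentile. A level belongs to its probe, and levels of different genes are not set against each other. The 75th percentile lay between 135 and 574 units of intensity, between 24822 and 34240 of 55681 probes were well above background, and no spot was saturated. Lists of regional marker genes placed the fractions. The cerebellum list was highest in coronal fraction 2, the olfactory bulb list in coronal fraction 12 and the striatum list in coronal fraction 8. The cerebral cortex list was highest in horizontal fraction 1, the dorsal end, and the hypothalamus list in horizontal fraction 6, the ventral end, and in sagittal fraction 5, near the middle. All 5 genes of the neuron list were well above background on every array. A fraction mixes many regions, so fewer cells of a type and less RNA per cell cannot be told apart.

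Some arrays stood apart. The 10928 probes that were well above background on no array had a median of -5.03 on sagittal fraction 9, the highest of the 28 arrays, and of -5.55 and -5.61 on horizontal fractions 6 and 1, the highest of that series. Sagittal fraction 1 had the lowest 75th percentile, and sagittal fraction 9 the next lowest (176). Several results below turned on them.

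The promoters of 3 receptor genes are shown because they differ in base composition. Each runs from 250 bases before to 50 after a transcript start in RefSeq GRCm38.p6, read on the strand of the gene. The same table had 3 entries each for Oprm1 and Oprl1 and 1 for Oprd1, while Oprk1 and Pnoc were not matched. Capitals mark the letters CACGTG (an E-box) and GGGCGG (a GC box), searched on both strands, so that a GC box of the opposite strand reads CCGCCC.
Oprd1, chr4:132144437-132144736, minus strand: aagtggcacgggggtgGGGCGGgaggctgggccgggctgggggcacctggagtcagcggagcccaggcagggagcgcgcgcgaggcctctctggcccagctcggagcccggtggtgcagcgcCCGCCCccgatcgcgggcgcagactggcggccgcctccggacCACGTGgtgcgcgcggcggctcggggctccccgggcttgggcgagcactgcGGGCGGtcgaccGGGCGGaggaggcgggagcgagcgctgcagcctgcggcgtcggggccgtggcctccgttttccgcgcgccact
Oprm1, chr10:6788320-6788619, plus strand: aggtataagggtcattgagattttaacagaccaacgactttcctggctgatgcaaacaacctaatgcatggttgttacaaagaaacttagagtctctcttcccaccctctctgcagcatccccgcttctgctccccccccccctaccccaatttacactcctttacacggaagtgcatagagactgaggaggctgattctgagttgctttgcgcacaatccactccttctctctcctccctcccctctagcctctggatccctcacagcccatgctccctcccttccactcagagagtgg
Oprl1, chr2:181714766-181715065, plus strand: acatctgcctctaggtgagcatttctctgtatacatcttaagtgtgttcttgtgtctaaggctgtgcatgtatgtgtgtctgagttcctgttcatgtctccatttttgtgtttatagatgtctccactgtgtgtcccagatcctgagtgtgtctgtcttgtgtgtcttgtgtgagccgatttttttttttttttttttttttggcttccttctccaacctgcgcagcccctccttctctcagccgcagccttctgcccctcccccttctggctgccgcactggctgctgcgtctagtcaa
The Oprd1 promoter was 79.3% G and C and held 43 CG dinucleotides, against medians of 52.7% and 7 over 32851 promoters of the same length. It held 4 GC boxes, found in 35.7% of all promoters, and 1 E-box, found in 7.15%. The Oprm1 and Oprl1 entries held 2 to 5 CG dinucleotides each and neither motif, which says only that these letters are not in those windows. No promoter readout was measured here.

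Variation along each axis was tested with limma as a smooth curve of the fraction number, with a Benjamini-Hochberg adjusted p under 0.05 as the threshold. Along the coronal axis 2 of the 5 genes passed, Oprk1 and Oprm1, where 33.7% of the 32364 tested probes did. Along the horizontal axis the same 2 genes passed, against 15.8% of probes. Both calls of Oprm1 are those of 1 of its 2 probes, and the other, outside the tested set, had adjusted p of 0.363 and 0.107 in a fit over all probes. Along the sagittal axis 1 passed, Oprk1, against 14.7% of probes. The median fitted range, the distance between the highest and lowest point of the curve, was 1.02 log2 for the 5 genes and 0.90 for all tested probes in the coronal series. It was 1.11 and 0.74 in the horizontal series and 1.01 and 1.06 in the sagittal series. The shares over 5 genes are too coarse to set the genes apart from the rest of the array.

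**Figure D1:**
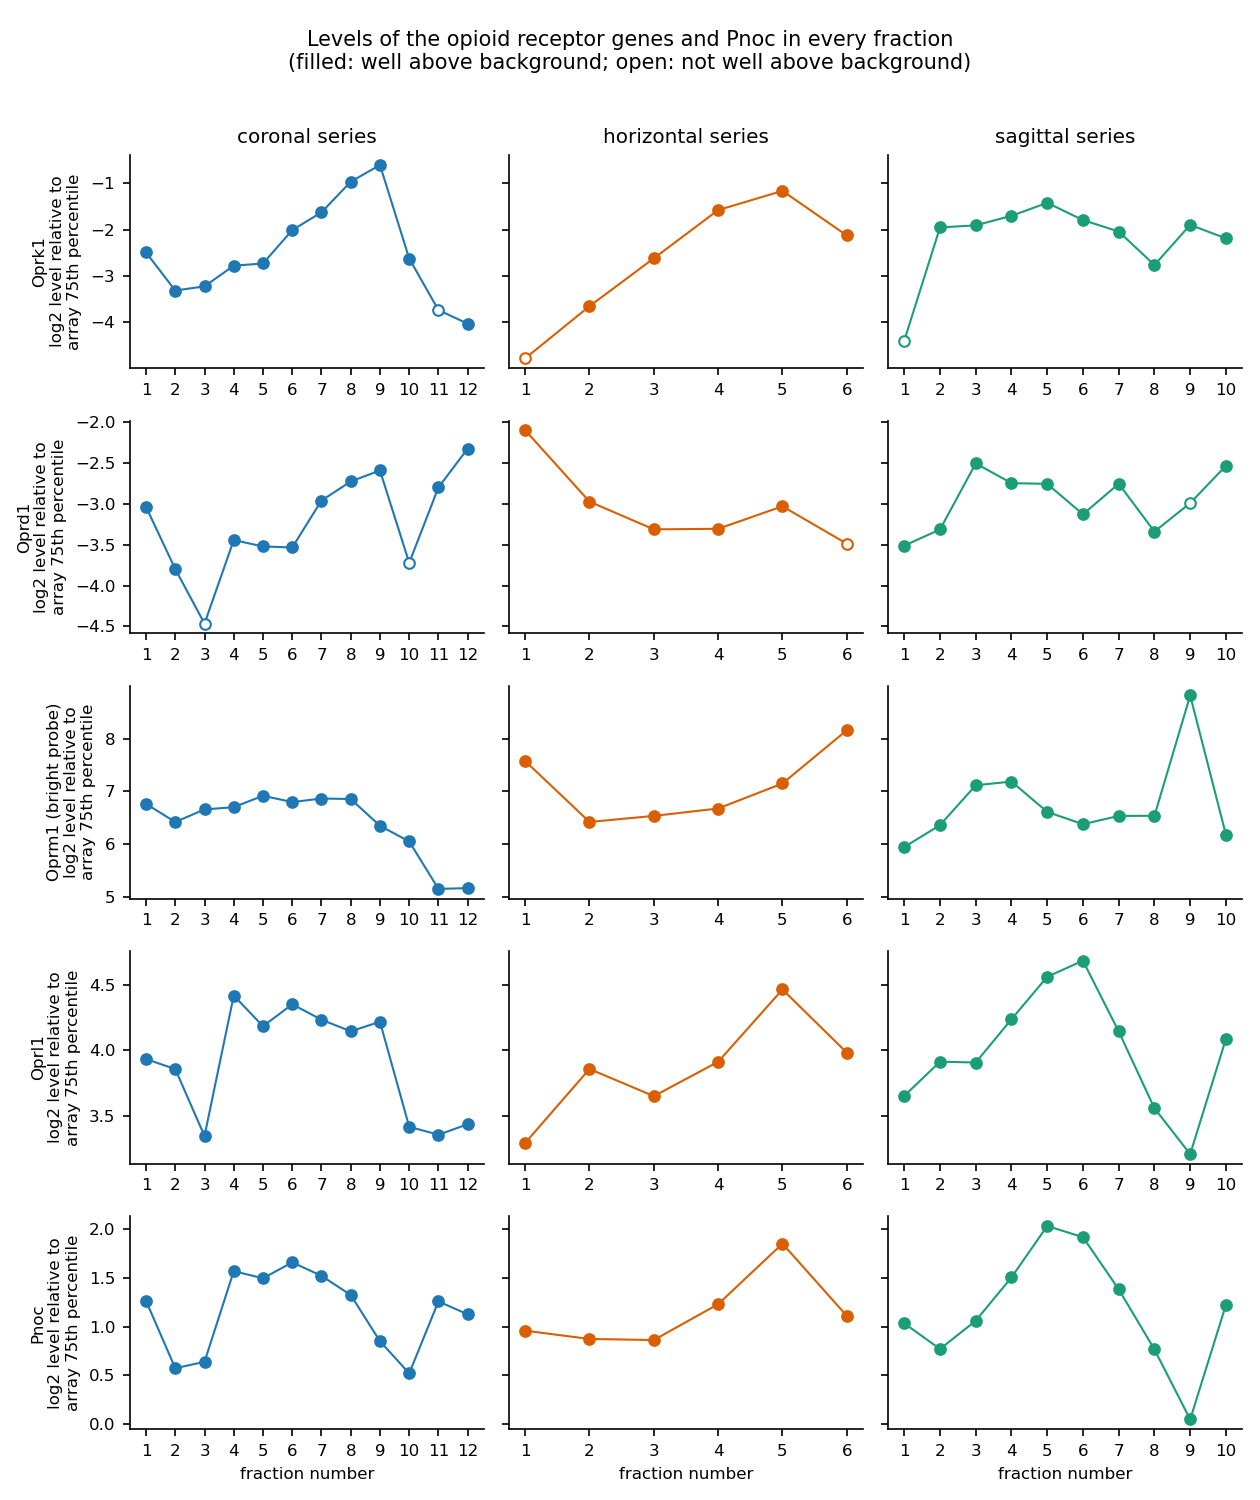
Log2 level relative to the 75th percentile of the array (y axis, own scale for each gene) against the fraction number (x axis) for 5 genes in 12 coronal, 6 horizontal and 10 sagittal fractions, 1 array each, with filled points well above background and open points not. Oprk1 peaked at -0.60 in coronal fraction 9, Oprl1 and Pnoc were highest near the middle of the sagittal series, and the Oprm1 probe of higher mean stood at 8.81 in sagittal fraction 9.

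Oprk1, the kappa receptor, passed the test in all 3 series and had the largest fitted range of the 5 genes in each. After normexp background correction, however, the bright Oprm1 probe described below had the larger range in every series, and without sagittal fraction 1 Pnoc (1.37 log2) and Oprl1 (0.84) had larger sagittal ranges than Oprk1 (0.76). In the coronal series it ranged from -4.03 in fraction 12, the olfactory end, through a median of -2.68 to -0.60 in fraction 9, and the neighbouring fraction 8 had -0.97. Fractions 8 and 9 differed by less than the residual SD of 0.42 log2 around the curve, and both stood above every other coronal fraction. The rise from fraction 12 to fraction 9 was 10.8-fold. The fitted range was 3.43 log2 with an adjusted p of 0.00235, and 96.6% of tested probes had a smaller one. With 1 degree of freedom fewer the range was 1.90 and the call was lost (adjusted p 0.0828), and after normexp background correction the range was 1.63 (0.000238).

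Along the horizontal axis Oprk1 was at -4.78, -3.65, -2.62, -1.58, -1.16 and -2.13 in fractions 1 to 6. The level climbed from fraction 2 to fraction 5, and the ventral fraction 6 lay below fractions 4 and 5. The probe was not well above background in fraction 1, so fraction 5 was at least 5.57-fold higher. The fitted range was 3.32 log2 with an adjusted p of 0.0214. Without fraction 3 or 4 the range was 3.44 or 3.20 and the adjusted p 0.0686 or 0.0732, in fits where no probe of the array passed, and without fraction 1 the range was 2.29 (0.0582). After normexp the range was 1.13 with an adjusted p of 0.0494.

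In the sagittal series Oprk1 was lowest in fraction 1 (-4.40, not well above background), had a median of -1.93 and was highest in fraction 5 (-1.42), at least 5.39-fold above fraction 1. The other 9 fractions lay between -2.76 and -1.42, so the range rested on fraction 1, the array with the lowest signal. The fitted range was 2.61 log2 with an adjusted p of 0.0443, and without fraction 1 it was 0.76 with an adjusted p of 0.440, where 0% of tested probes passed. After normexp it was 0.51 (0.383). The call was also lost without any 1 of fractions 3 to 8, where the range stayed between 2.52 and 2.74 and from 6.24% to 12.2% of tested probes passed, and kept in 3 of the 10 fits that left out 1 fraction. In the coronal series adding the slide to the model gave a range of 3.19 (adjusted p 0.151), a fit in which 0.745% of tested probes passed, and the 8 fractions that shared 1 slide gave 2.19 (0.0581).

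**Figure D2:**
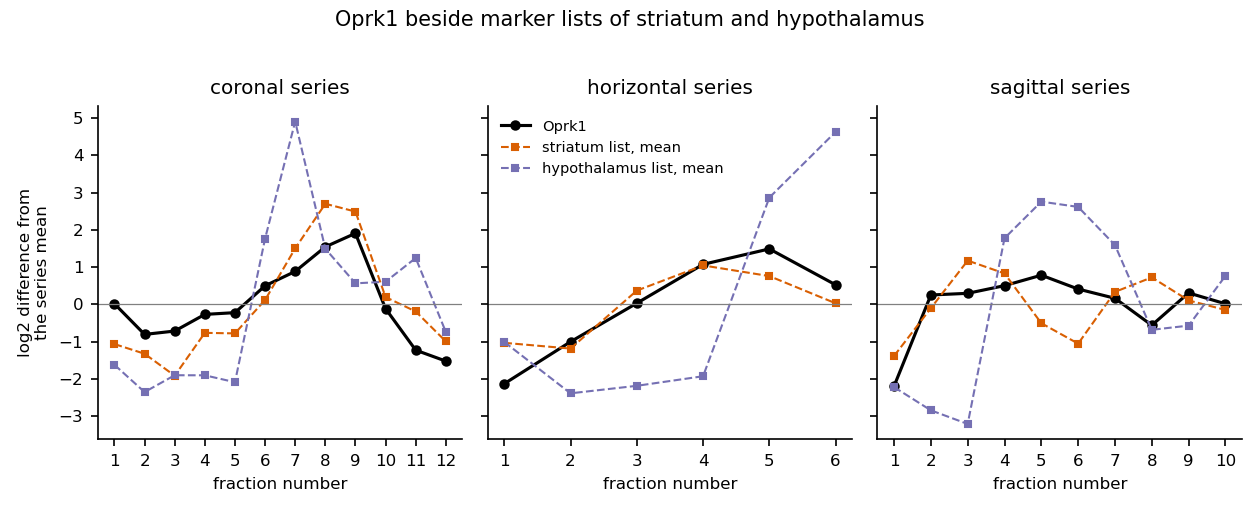
Log2 difference from the series mean (y axis) against the fraction number (x axis) for Oprk1 and for the mean of the striatum list (7 genes) and the hypothalamus list (6 genes), 1 array per fraction. Oprk1 and the striatum list were both highest in coronal fractions 8 and 9, and in the sagittal series the list stood at -1.05 in fraction 6 and Oprk1 above its mean.

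The genes with the profile most like that of Oprk1 were Tac1, the precursor of substance P (Pearson r 0.84 over the 28 fractions), Pde10a, a phosphodiesterase of striatal neurons (0.82), Gnal, a G protein subunit of the olfactory and striatal systems (0.82), Scube3 (0.80) and Isl1, a LIM-homeodomain factor (0.80). Isl1 was well above background on 15 of 28 arrays and Scube3 on 23, so the r of Isl1 rests in good part on levels not well above background. The r within series was 0.90, 0.94 and 0.71 for Tac1 in the coronal, horizontal and sagittal series. Against the mean of the 7 striatum genes, Oprk1 had r 0.86, 0.90 and 0.42 in the same order. Other lists ran more closely with it in the horizontal and sagittal series. The midbrain dopamine list had r 0.94 in the horizontal series, and the myelin, choroid plexus and cerebellum lists 0.80, 0.80 and 0.78 in the sagittal series. These last 3 lists were lowest in sagittal fraction 1 (-2.99, -4.03 and -4.79), where Oprk1 was at -4.40 and not well above background. Their r thus rests in good part on that array, the one of lowest signal. These points share mice and arrays and neighbour one another, so the values are descriptions. In the coronal series Oprk1 and the list peaked in adjacent fractions, 9 and 8. In the sagittal series they parted, since the list was highest in fraction 3 and Oprk1 in fraction 5.

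Oprd1, the delta receptor, did not pass in any series under the main settings, but passed under some alternatives given below. It was well above background in 24 of 28 fractions. Its coronal levels ran from -4.47 in fraction 3, at the cerebellar end and not well above background, through a median of -3.24 to -2.33 in fraction 12. Fractions 7, 8, 9, 11 and 12 lay between -2.96 and -2.33, and fraction 10, also not well above background, interrupted them at -3.72. The fold of fraction 12 over fraction 3 was at least 4.40. The fitted range was 1.02 log2 with an adjusted p of 0.166, and without fraction 10 that p was 0.0217. After normexp background correction the range was 0.82 with an adjusted p of 0.0118.

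In the horizontal series Oprd1 was at -2.10 in the dorsal fraction 1 and between -3.49 and -2.98 in the other 5. Fraction 1 was thus at least 2.61-fold above fraction 6, where the probe was not well above background, and the fitted range of 1.11 log2 had an adjusted p of 0.106. Scaled to the median of each array instead, this p was 0.0382, in a fit where 59.8% of all tested probes passed. After normexp it was 0.0295, where 28.0% passed, against 15.8% on the scale used here. Without fraction 1, where the dim probes were also high, the range was 0.30 with an adjusted p of 0.714. The sagittal levels spanned -3.51 to -2.51, and the 2.01-fold between fractions 3 and 1 came with an adjusted p of 0.192. The highest likeness to Oprd1 was that of Magi1, a scaffold protein of cell junctions (r 0.81 over 28 fractions, 0.92, 0.90 and 0.52 within series), and Ajap1 (0.79), Pdzd2 (0.76) and Fam124a (0.73) were also among the most alike. Oprd1 had r 0.84 with the list of cortical genes along the horizontal axis, but 0.29 and 0.43 along the coronal and sagittal axes. The microglia and red blood cell lists had 0.79 and 0.71 horizontally, the striatum list 0.55 coronally and the neuron list 0.75 sagittally.

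The 2 probes of Oprm1, the mu receptor, gave different profiles. The probe of higher mean, called the bright probe here, was a single spot per array, well above background on all 28 arrays. The second probe, with 8 to 10 spots per array, was well above background on 5 of 28, which were coronal fraction 4 and sagittal fractions 3, 4, 5 and 6. Their r was 0.18 over 28 fractions, and 0.33, 0.52 and -0.12 within the coronal, horizontal and sagittal series. Every result for Oprm1 therefore belongs to a probe and not to the gene as such.

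On the bright probe, coronal levels lay between 6.05 and 6.92 in fractions 1 to 10 and at 5.16 and 5.17 in fractions 11 and 12, the olfactory end. The fitted range was 1.91 log2 with an adjusted p of 0.000928. Without fractions 11 and 12, a choice made after seeing the data, it was 0.87 with an adjusted p of 0.0472. The call was lost over the fractions of 1 slide (0.86 log2, adjusted p 0.0600, with 12.9% of probes passing) and when the slide was added to the model (1.43 log2, 0.374, with 0.745% of probes passing), where fractions 11 and 12 were alone on their slide within the series. In the horizontal series the levels were 7.57, 6.42, 6.54, 6.68, 7.15 and 8.16 in fractions 1 to 6, high at both ends. The fitted range was 1.75 log2 with an adjusted p of 0.0369, and without fractions 1 and 6 it was 0.70 with an adjusted p of 0.283. Without fraction 3 or 4 the range was 1.72 or 1.82 and the adjusted p 0.103 or 0.111, in fits where no probe passed, and without fraction 6 the range was 1.07 (0.121). Scaled to the array median the range was 0.71 with an adjusted p of 0.194, though 59.8% of tested probes passed under that scale, and after quantile normalization the adjusted p was 0.117.

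In the sagittal series the bright probe stood at 8.81 in fraction 9 and between 5.95 and 7.19 in the other 9, with an adjusted p of 0.769. Its highest values of all thus fell on sagittal fraction 9 and horizontal fractions 6 and 1, where the dim probes were also at their highest or next highest within the series. The hypothalamus and pituitary lists were highest in horizontal fraction 6 too, 4.63 and 3.78 log2 above their series means. All 5 pituitary genes were well above background there, against 1 of 5 in the other horizontal fractions. In sagittal fraction 9 the pituitary list was 1.21 above its series mean, with 1 of 5 genes well above background, and the hypothalamus list was at -0.57. Other arrays went the other way. On coronal fraction 11 the dim probes were highest of that series (-5.39), but the bright probe had its lowest level of all (5.16). On sagittal fraction 10 the dim probes were next highest of the series (-5.38), and the bright probe was at 6.18. The part of the arrays and of pituitary or hypothalamic tissue in these levels was not tested.

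The bright probe ran closely with probes of genes of unlike kinds. Over 28 fractions 73 other probes had r over 0.85 with it, 34 had r over 0.95 and 10 had r over 0.99. The 5 symbols most like it were Pdcd4 (0.995), a regulator of translation, Krt222 (0.994), Oacyl (0.994), the sodium-calcium exchanger Slc8a3 (0.994) and Hexim2 (0.991). Other tested probes of these symbols did not run with it, with r 0.17 for Krt222, -0.30 for Slc8a3, and -0.04 and -0.29 for Hexim2. Of the 24 symbols with a probe at r over 0.95, 12 had other tested probes, 14 in all. The median r of those 14 with the bright Oprm1 probe was -0.09, the highest was 0.24 and the lowest -0.60.

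**Figure D3:**
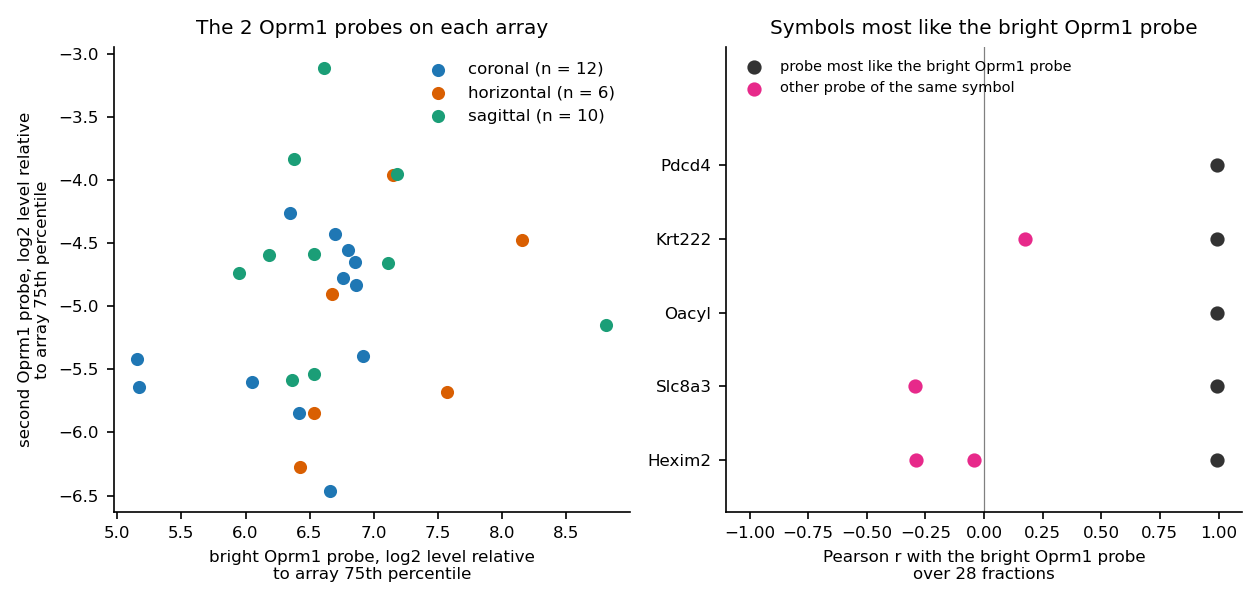
Left, log2 level of the second Oprm1 probe (y axis) against that of the bright probe (x axis), both relative to the 75th percentile of the array, 1 point for each of 28 arrays. Right, Pearson r with the bright Oprm1 probe over 28 fractions (x axis) for the 5 symbols most like it (y axis), where their most alike probes lie above 0.99 and their other probes between -0.30 and 0.17.

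The second Oprm1 probe was highest in the middle of the sagittal series, with -3.95, -3.11 and -3.84 in fractions 4, 5 and 6. In fraction 5 all 10 of its spots were well above background, with an SD between spots of 0.13 log2. The level in fraction 2, not well above background, was the lowest of the series, and fraction 5 was at least 3.86-fold above it. In the other series its highest values were -3.96 in horizontal fraction 5 and -4.26 in coronal fraction 9, neither well above background. It did not enter the tested set, since no horizontal fraction was well above background, and its sagittal adjusted p in the fit over all probes was 0.306. The profile most like it was that of the orphan receptor gene Gpr149 (r 0.84 over 28 fractions), then Fndc9 (0.79), Cbarp (0.78), Pbx2 (0.77) and the imprinted gene Grb10 (0.77). It had r 0.76 with Oprl1, 0.71 with Pnoc and 0.63 with Oprk1, where the bright probe had 0.05, -0.15 and 0.32. Since it was above background on 5 arrays and Gpr149 on 8, these r rest largely on levels that were not well above background.

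Oprl1, the nociceptin receptor, was well above background in all 28 fractions. Coronal levels ranged from 3.34 in fraction 3 through a median of 4.04 to 4.42 in fraction 4. Fractions 4 to 9 lay between 4.15 and 4.42, while fractions 3, 10, 11 and 12 lay between 3.34 and 3.43. The highest was 2.11-fold over the lowest, and the fitted range of 1.01 log2 had an adjusted p of 0.103. Without fraction 3 the adjusted p was 0.0254.

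Horizontal levels of Oprl1 were 3.29, 3.86, 3.65, 3.91, 4.47 and 3.98, lowest at the dorsal end and highest in fraction 5 (adjusted p 0.220). In the sagittal series Oprl1 was highest in fractions 6 (4.69) and 5 (4.57), which differed by less than the residual SD of 0.39, and lowest in fraction 9 (3.20). The highest was 2.80-fold over the lowest, or 2.19-fold with fraction 9 left out, and the adjusted p was 0.362. The second Oprl1 probe had r 0.57 with the first over 28 fractions, 0.97 in the horizontal series and 0.66 and 0.43 in the coronal and sagittal series. It too was highest in horizontal fraction 5 (-1.60) and sagittal fraction 6 (-2.03). But in sagittal fraction 5 the second probe was at -2.81, below its sagittal median of -2.51. Its lowest sagittal fraction was 8 (-3.16), and its coronal maximum was in fraction 9 (-1.57). The genes most like Oprl1 were Zfp941 (r 0.94), Pnma3 (0.92), Rgs17, a regulator of G protein signalling (0.91), Zfp92 (0.90) and Pomgnt2 (0.90), and 18 probes had r over 0.85.

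Pnoc, the nociceptin precursor, was well above background in all 28 fractions. Coronal levels ranged from 0.52 in fraction 10 through a median of 1.26 to 1.66 in fraction 6, with fractions 4 to 7 the 4 highest of the series. The low fractions were 2, 3, 9 and 10, between 0.52 and 0.85, and the curve had an adjusted p of 0.505, or 0.0343 without fraction 1. Horizontal fraction 5 stood at 1.85 and the other 5 between 0.86 and 1.23 (adjusted p 0.499). Sagittal levels in fractions 2 to 5 were 0.77, 1.06, 1.51 and 2.04, and those in fractions 6 to 9 were 1.92, 1.39, 0.77 and 0.05, so that the middle was high and fraction 9 the lowest. Fraction 5 was 3.96-fold over fraction 9, with a fitted range of 1.01 log2 and an adjusted p of 0.390. Without fraction 9 the highest level was 2.41-fold over the lowest, and the range was 0.84 with an adjusted p of 0.341, while without fraction 10 the range was 1.95 with an adjusted p of 0.00893.

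Pnoc and its receptor gene Oprl1 had the highest r of the 21 pairs of probes, 0.81 over 28 fractions, with 0.64, 0.82 and 0.96 in the coronal, horizontal and sagittal series. With the second Oprl1 probe Pnoc had r 0.30. Pnoc and the first Oprl1 probe were both highest in horizontal fraction 5 and in sagittal fractions 5 and 6. Both were lowest of the sagittal series in fraction 9, an array that stood apart. All 5 pathway lists and 2 of 19 marker lists were lowest there too. Since the fractions neighbour one another and come from the same arrays, this is a description of these brains. The symbols most like Pnoc were Mrgpre, a Mas-related receptor (r 0.87), Tmem130 (0.84), Maged1 (0.83), the serotonin receptor gene Htr7 (0.83) and Tspyl2 (0.82).

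The sagittal fractions were also set against each other as mirror pairs by number, fraction 1 with 10, 2 with 9 and so on. The marker lists differed between the fractions of some pairs. The cerebellum list was at -4.79 and -1.17 in fractions 1 and 10 and at 0.86 and -1.29 in fractions 2 and 9, relative to its series mean, and the hypothalamus list at -3.21 and -0.68 in fractions 3 and 8. The dim probes were at -7.52 and -5.61 in fractions 3 and 8. These pairs also joined different slides and scan days, so tissue and array cannot be told apart in them. Pnoc differed least between the fractions of a pair, with an SD within the 5 mirror pairs of 0.26 log2. The means of its pairs spread over 1.57 log2, and the middle pair, fractions 5 and 6, was highest at 1.98. Oprl1 had an SD within pairs of 0.29 and a spread of 1.07, again with the middle pair highest at 4.63. The second Oprl1 probe did not show this, with its highest pair at fractions 1 and 10 (-2.34), the middle pair at -2.42, an SD within pairs of 0.40 and a spread of 0.53. For the second Oprm1 probe the middle pair was highest too, at -3.47, but 4 of the 10 fractions were well above background and the lowest pair, fractions 2 and 9, was not, so no spread of its pairs is given.

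For Oprk1 the middle pair was highest at -1.61, and the outer pair held fraction 1, not well above background, so no spread is given. Oprd1 had an SD within pairs of 0.43. Its lowest pair, fractions 2 and 9, held fraction 9, not well above background, so no spread is given. The bright Oprm1 probe had an SD within pairs of 0.83, set by fractions 2 and 9 (6.36 and 8.81). The median SD within pairs over all 32364 tested probes was 0.38 log2. Leaving out sagittal fraction 10 brought Pnoc and Oprl1 (1.45 log2, adjusted p 0.0122) past the threshold, and counting the bright Oprm1 probe (2.65 log2, 0.0151) 4 of the 5 genes then passed. In that fit 47.1% of all tested probes passed, against 14.7% with every fraction.

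**Figure D4:**
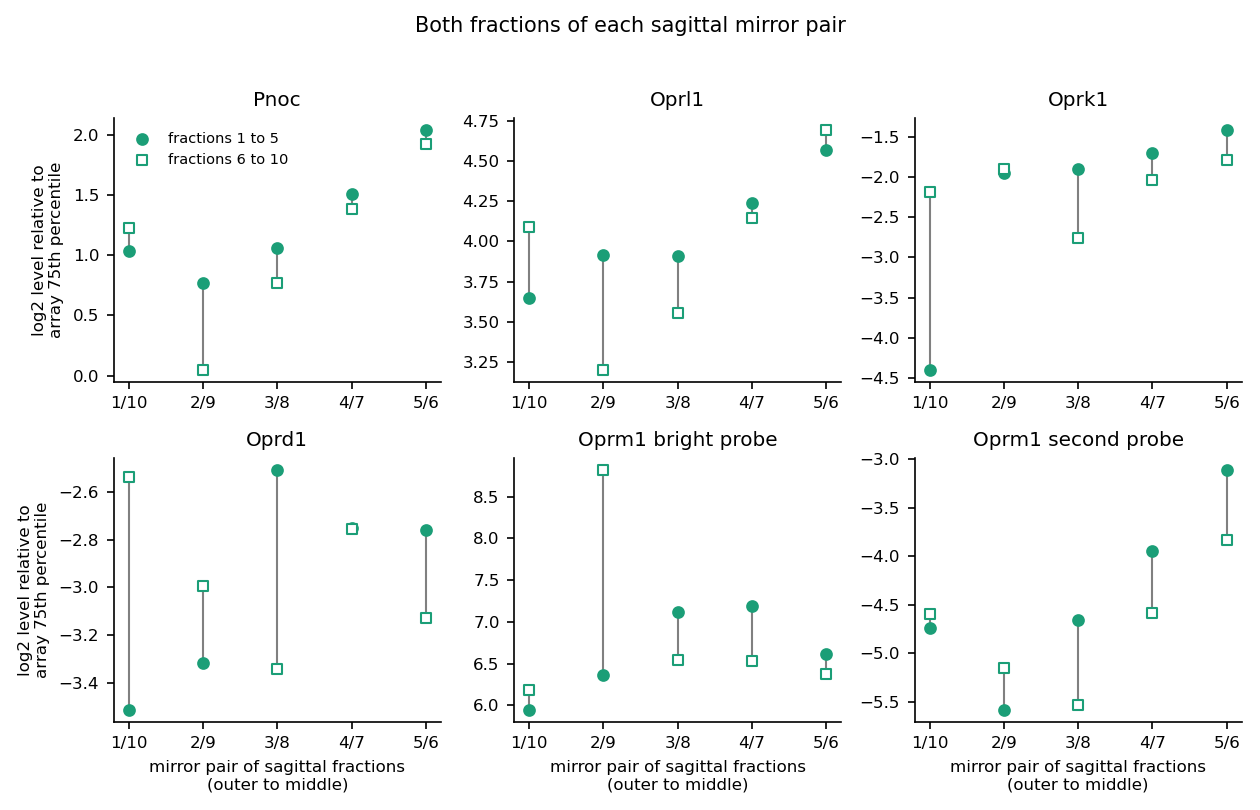
Log2 level relative to the 75th percentile of the array (y axis, own scale for each panel) for both fractions of each of the 5 sagittal mirror pairs (x axis), with circles for fractions 1 to 5, squares for fractions 6 to 10 and lines joining a pair. Pnoc, the first Oprl1 probe and the second Oprm1 probe were highest in the pair of fractions 5 and 6, while the second Oprl1 probe, not plotted, was highest in that of fractions 1 and 10, and the bright Oprm1 probe differed by 2.45 log2 between fractions 2 and 9.

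The sides of the sagittal series were compared with the mirror pair as a block. Fractions 1 to 4 lay on 1 slide and fractions 5 to 10 on another. Fractions 1 to 4 were also scanned on a different day from every other array. In 4 of the 5 pairs side, slide and scan day therefore cannot be told apart. limma called 0% of the tested probes and none of the 5 genes, with 1408 probes and 0 of the 5 genes at an unadjusted p under 0.05. Fractions 6 to 10 minus fractions 1 to 5 gave 0.25 ± 0.45 (SE, 5 pairs) for the bright Oprm1 probe, 0.14 ± 0.43 for Oprk1 and -0.21 ± 0.21 for Pnoc, and the values for Oprd1 and Oprl1 were 0.02 ± 0.28 and -0.12 ± 0.23. Each lay within its error or close to it.

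The 3 brains were also compared over all fractions of each. limma called 1.63% of the tested probes and 0 of the 5 genes, of which 0 had an unadjusted p under 0.05, against 4934 of the tested probes. The mean level of Pnoc was 1.15 in the coronal, 1.15 in the horizontal and 1.18 in the sagittal series, and that of Oprl1 was 3.91, 3.86 and 4.00. The means of Oprk1 were -2.51, -2.65 and -2.21, and those of Oprd1 were -3.25, -3.04 and -2.96. The largest difference was that of the bright Oprm1 probe, 0.69 ± 0.34 log2 (SE) between the horizontal and coronal means, with an adjusted p of 0.494 over the 3 series.

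The genes around the receptors were taken from lists of 40 genes, all of which were tested. Of these, 16 (40%) passed the test in the coronal series, 7 (17.5%) in the horizontal and 2 (5%) in the sagittal series. The shares of all tested probes were 33.7%, 15.8% and 14.7%. Of the 7 horizontal calls 3 were kept without fraction 1, where 6.84% of all tested probes passed, and 1 without fraction 6 (4.13%). Of the 2 sagittal calls 0 were kept without fraction 1, where no probe passed (0%), and without fraction 9 (38.8%) both were kept and 8 genes passed, arrays chosen after the data were seen. Among the other opioid peptide precursors 1 of 3 passed, in the coronal series. Pdyn, the precursor of the kappa ligand dynorphin, was highest at -0.89 in coronal fraction 9, the fraction where Oprk1 was also highest. That was at least 12.8-fold above fraction 12, where Pdyn was not well above background. Its fitted range was 3.82 with an adjusted p of 0.0208. But Pdyn was well above background on 10 of 28 arrays, and in 3 of the 12 coronal fractions. This range thus rests largely on levels not well above background. Penk, the enkephalin precursor, was highest in coronal fraction 8 (7.16), the fraction of the striatum list, with an adjusted p of 0.0598. Pomc, the precursor of beta-endorphin, stood at 5.66 in horizontal fraction 6, with an adjusted p of 0.0782. The hypothalamus and pituitary lists were highest in that fraction too.

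Of 5 inhibitory G protein alpha subunits, Gnai3 alone passed, in the coronal series, with a fitted range of 1.55 (adjusted p 0.00462) and its highest level in fraction 12. The effector channels and cyclases had 5 of 9 past the threshold in the coronal series, 4 in the horizontal and 1 in the sagittal series. Of all tested probes 33.7%, 15.8% and 14.7% passed, in the same order. Kcnj5, a subunit of G protein-gated potassium channels, was highest at -1.15 in coronal fraction 6, at least 10.8-fold above fraction 12, where it was not well above background, with a fitted range of 4.89 (adjusted p 0.0135), and was highest in horizontal fraction 5 (-1.51), as were Oprk1, Oprl1 and Pnoc. Adcy1, a calcium-stimulated adenylyl cyclase, was highest in coronal fraction 2 (5.46), as the cerebellum list was, with a fitted range of 3.25, while Adcy5, the main cyclase of striatal neurons, was highest in fraction 9 (4.31) with one of 1.88. Kcnj9, another potassium channel subunit, passed in the coronal and horizontal series (adjusted p 0.0143 and 0.0358), Adcy8 in the coronal series (0.0210), Cacna1a in the horizontal series (0.0311) and Kcnj6 in the sagittal series (0.0301). Without horizontal fraction 6 the range of Kcnj9 was 0.65 (adjusted p 0.132), that of Cacna1a 0.70 (0.228) and that of Adcy1 1.46 (0.0582), and without sagittal fraction 1 that of Kcnj6 was 1.12 (0.223). Without horizontal fraction 1 the calls of Kcnj9 (1.24 log2, 0.0913) and Cacna1a (1.79, 0.0614) were lost too, while Kcnj5 kept its horizontal call in both fits.

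Among 12 regulators of the receptors 5 passed in the coronal series, 2 in the horizontal and 0 in the sagittal series. In these series 33.7%, 15.8% and 14.7% of all tested probes passed. Rgs9, a striatal regulator of G protein signalling, was highest in coronal fraction 8 (5.37) and lowest in fraction 3 (-0.11), with a fitted range of 4.45 (adjusted p 0.000351). Rgs4 was also highest in fraction 8 (5.80), with a fitted range of 4.35 (adjusted p 0.000431), and the arrestin gene Arrb1, the receptor kinase gene Grk2 and Rgs2 had smaller ranges of 1.02, 1.27 and 0.94. The 2 horizontal calls were those of Rgs9 and Rgs4, and without fraction 6 their adjusted p was 0.0842 and 0.0652 (ranges 3.73 and 1.70). Without fraction 1 Rgs9 kept its call and Rgs4 did not (1.98 log2, adjusted p 0.0909). For genes that make or break down the peptides, 4 of 11 (36.4%) passed in the coronal series. In the horizontal and sagittal series 1 each (9.09%) passed, beside the same shares of all tested probes. Pcsk2, a prohormone convertase, was lowest in coronal fraction 3 (3.88) and highest in fraction 9 (6.12), with an adjusted p of 0.00356, and Anpep, Cpe and Scg5 had adjusted p of 0.0184, 0.0184 and 0.0111. Pcsk2 also passed in the horizontal series, but not without fraction 1 (1.52 log2, adjusted p 0.0931) or 6 (1.03, 0.0617). Mme, neprilysin, an enzyme that cleaves enkephalins, passed in the sagittal series (adjusted p 0.0103), with its lowest level in fraction 1, as for Oprk1. It was not well above background there, its highest fraction was at least 1.91-fold above that one, and without fraction 1 the fitted range was 2.35 with an adjusted p of 0.118, in the fit where no probe passed.

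**Figure D5:**
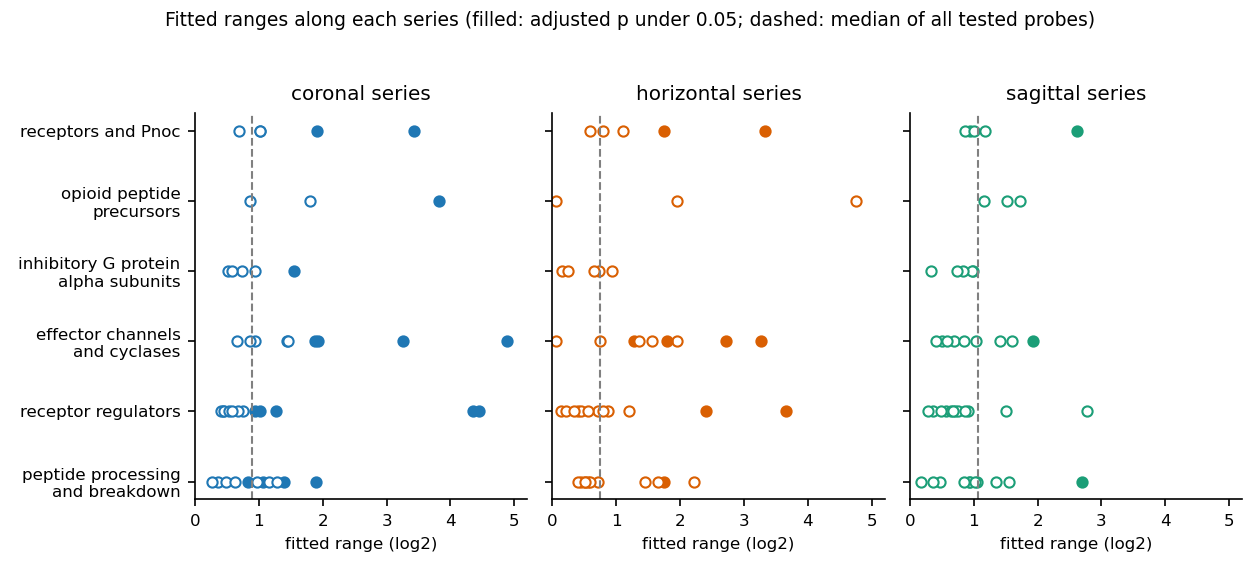
Fitted range in log2 units (x axis) of the 5 genes and of 40 genes in 5 lists (y axis) in the coronal, horizontal and sagittal series, with filled points at an adjusted p under 0.05 and a dashed line at the median of all tested probes (0.90, 0.74 and 1.06). Oprk1 had the largest range of the 5 genes in every series (3.43, 3.32 and 2.61), but not after normexp (1.63, 1.13 and 0.51, with 1.99, 1.64 and 1.25 for Oprm1) or, in the sagittal series, without fraction 1.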

How the data were processed

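Brains of 3 male mice were sectioned in 1 plane each, and total RNA of 28 fractions was labelled with Cy3 and hybridised to Agilent arrays of 1 colour. The deposited intensity values, per the file headers, are those of Feature Extraction 10.5.1.1 after its background subtraction, and the array design is of build mm9. A table of log2 values deposited by the authors covers 44720 probes, with column medians of -2.63 to -1.63. For probes with 1 spot these matched the values computed here to within 2.32e-06 after an offset of 0.00111 to 0.00758 per array. Their scale, centring and direction are thus known.

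Here, spots with an outlier flag (108 to 176 per array) were left out, the other spots of each probe were averaged on the scale of processed signal, and the log2 values were set to 0 at the 75th percentile of their array. A probe was well above background where at least 0.5 of its spots had that flag. Of 55681 probes, 27235 (48.9%) were named through a RefSeq table of GRCm38.p6, used for names and promoters. The probe with the highest mean stood for a gene. The tested set, 32364 probes, passed that rule at least 1 time in every series. All columns were mapped to samples, with 0 unmapped.

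limma 3.58.1 in R 4.3.3 fitted a natural spline over fraction numbers (3 degrees of freedom, or 2 for the horizontal series), the difference between series, and the sagittal sides with the mirror pair as a block. Adjusted p-values are Benjamini-Hochberg values over all tested probes, with a threshold of 0.05. Where the lowest fraction was not well above background, a fold is a lower bound. Its base is the dimmest signal that still passed the rule on that array, or the probe's own level if that was higher. The number of arrays limits the precision, and repeated spots had a median SD of 0.0547 to 0.0795 log2. The models were tested on simulated data, but no outcome is given here, so no result rests on it. Alternatives were the array median, quantile normalization, normexp (offset 50, using the median foreground, since that is the foreground column of the files), other filters and flags, 1 degree of freedom fewer or more, the authors' log2 values, other probes, the slide, and leaving out fractions. The genes named are the 5 genes, those of the pathway lists that passed or had the largest range, and for each probe the 5 symbols of highest r, of which 1 is not reported here. The members and lists were chosen with earlier results of these data known.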

Additional observations from a re-analysis of the deposited data

Results flagged for a closer look

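Within each of the horizontal and sagittal series, the highest and lowest fraction of each probe was set against its neighbour in value, as the share of the whole range taken by the gap. A gap beyond the 95% critical value for that number of fractions was found in 4 of 14 sets, where 1 in 20 would be 0.7. That expectation holds for independent replicates, while fractions of a series are different places, so a far value can be anatomy. The sets also share arrays, and the share of all tested probes with such a gap was not computed. The count therefore does not set these genes apart. The bright Oprm1 probe in sagittal fraction 9 (8.81) stood apart from the next fraction (7.19) by a share of 0.568. Oprk1 in sagittal fraction 1 (-4.40) lay below the next fraction (-2.76) by a share of 0.549, on the array of lowest signal. It was not well above background there, and at the dimmest signal that was (-3.85) the share is 0.448, below the critical value of 0.466, so that 3 of the 14 sets remain. Oprd1 in horizontal fraction 1 (-2.10) lay above the next (-2.98) by a share of 0.629. Pnoc in horizontal fraction 5 (1.85) lay above the next (1.23) by a share of 0.628. For 6 fractions the critical value is 0.625, so both horizontal shares passed it narrowly. What sets these values apart was not tested.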

How the results depend on the processing

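Counts of the 5 genes past the threshold changed as follows. The coronal count of 2 was 0 with the slide as an added term, where 0.745% of all tested probes passed, and 1 over the fractions of 1 slide (12.9%), where Pnoc passed (adjusted p 0.0454) and Oprk1 (0.0581) and the bright Oprm1 probe (0.0600) did not. It was 3 under normexp (39.3%) and 2 to 3 when 1 fraction was left out, with 3 without fraction 1, 3 or 10. With 1 degree of freedom fewer it was 2, with Oprl1 (0.0451) in place of Oprk1. It stayed at 2 without coronal fractions 11 and 12, also chosen after seeing the data (25.0%). The horizontal count of 2 was 3 under normexp (28.0%), 1 under quantile normalization (21.2%) and with 1 degree of freedom more (4.95%), and 0 with 1 fewer (0.00309%) and without fractions 1 and 6 (0%), an alternative chosen after seeing the data. Under the array median (59.8%) it stayed at 2, with Oprd1 (adjusted p 0.0382) in place of the bright Oprm1 probe (0.194). Leaving out 1 fraction gave 0 to 2, with 0 without fraction 3 or 4, where no probe of the array passed. The sagittal count of 1 was 0 under the array median (1.04% of all tested probes), quantile normalization (8.12%), normexp (44.2%), 1 degree of freedom fewer (12.7%) or more (9.54%), the slide term (7.79%), the fractions of 1 slide (0%), and without fractions 1 and 9 (2.9%, chosen after seeing the data), and 0 to 4 when 1 fraction was left out. The counts for the series difference and the sides were 0 as reported and in every alternative run. Fraction numbers name different places in different planes and do not pair samples, and with the number as a replicate block 0 of the 5 genes differed between series. Oprk1 kept its coronal call in 12 of 12 and its horizontal call in 3 of 6 leave-one-out fits, and the bright Oprm1 probe in 12 of 12 and 3 of 6.

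Some small differences, none past the threshold, changed direction. For the sides (fractions 6 to 10 minus 1 to 5), the array median gave -0.11 for Oprm1, -0.33 for Oprd1 and -0.21 for Oprk1, and quantile normalization -0.30 for Oprd1 and -0.039 for Oprk1. Leaving out 1 mirror pair gave -0.31 to 0.47 for Oprm1, -0.22 to 0.23 for Oprd1, -0.38 to 0.39 for Oprk1 and -0.26 to 0.029 for Oprl1. For the largest difference between series, Pnoc had -0.017 under quantile normalization, -0.034 under normexp and -0.036 with the slide as a random block, and -0.069 to 0.17 without 1 fraction, and the second Oprl1 probe had -0.35. The sagittal curve took another shape for Oprd1 under normexp (0.70 log2) and for Oprm1 without fractions 1 and 9 (0.70). The cause was not tested. The array median moved with respect to the 75th percentile between -4.14 and -2.53 log2 over arrays, with sagittal fraction 9 highest, so a level relative to 1 scale shifts against the other.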
